A study of Homo sapiens with 12 samples.

Results

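The DNA damage response and repair genes examined here are 34 genes of checkpoint signalling, homologous recombination, the Fanconi anaemia pathway, end joining, mismatch repair, excision repair and translesion synthesis. They were chosen by name with earlier results of these data known, so shares of members set beside those of all genes are descriptions. All 34 were matched by Ensembl identifier to the 12584 genes of the count table used here. RNA-seq was performed on 12 libraries from the human lung adenocarcinoma cell lines A549 and PC9, with 3 libraries in each of 4 groups. A549-HOXC6 and PC9-HOXC6 cells carried the homeobox transcription factor HOXC6 on the lentiviral vector pCDH-HOXC6, whereas A549-NEO and PC9-NEO cells carried the empty vector pCDH-NEO, and all 4 groups were grown under neomycin selection. Each group is 1 stably infected population of 1 line, so its 3 libraries do not show how separate infections vary, and integration or selection cannot be told apart from HOXC6. HOXC6 itself was not analysed here.

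Library totals ran from 1212053 to 3286577 counts, so that 3 counts corresponded to 0.915 to 2.57 CPM (the count of a gene scaled by its library's total, with edgeR's TMM factor). A549-HOXC6 replicate 2 was the shallowest library. A549-HOXC6 replicate 3 stood apart from its group: 11195 genes were detected in it against 9825 to 10331 in the other A549 libraries, and the chi-square per degree of freedom was 4.26 and 3.11 against replicates 1 and 2 but 1.67 between those. The A549 changes of ATM, NBN, RAD50, ERCC5 and POLK are given with and without it, and the A549 changes of other genes with it. Of the epithelial markers, 3 of 5 were in the table, with a summed level of 1320 to 2210 CPM in A549 and 6130 to 6700 CPM in PC9. Most of it was KRT18, at 1140 to 1180 CPM in A549-NEO and 1610 to 2090 in A549-HOXC6. CDH1 went the other way in A549, from 177 to 190 CPM in NEO to 117 to 162 with HOXC6. EPCAM was at 4.71 to 6.94 CPM in A549-NEO and 4.37 to 6.42 in A549-HOXC6, against 183 to 205 in PC9-NEO and 148 to 167 in PC9-HOXC6. Of the markers of other cells that a culture could hold, 6 of 8 were in the table and none was at 0 in every library, with summed levels of 75.5 to 79.5 CPM in A549-NEO, 71.7 to 102 in A549-HOXC6, 29.7 to 46.3 in PC9-NEO and 39.8 to 54.5 in PC9-HOXC6. PTPRC, a leukocyte marker, reached at most 4 counts, VWF, an endothelial marker, at most 5 and COL1A2, a fibroblast collagen, at most 1. The collagen COL1A1 was at 51.3 to 73.8 CPM in A549 and 19.1 to 39.1 CPM in PC9. The macrophage marker CD68 was at 8.25 to 10.8 CPM in A549-NEO, 14.6 to 21.9 in A549-HOXC6, 5.4 to 12.6 in PC9-NEO and 10.4 to 15 in PC9-HOXC6, and the part of both in the results was not tested.

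Cells sense a broken chromosome through the MRE11, RAD50 and NBN complex, which recruits the kinase ATM, while TOPBP1 and CHEK1 act in the checkpoint of stalled replication. TP53BP1 and RIF1 hold back the resection of broken ends, and BRCA1 with its partners BARD1, PALB2 and BRCA2 promotes repair by homologous recombination. The other members remove crosslinks, mispaired bases and bulky lesions or, in the case of POLK and REV3L, copy past lesions that block the replicative polymerases. Many of these genes are long and poor in G and C, while the excision repair genes are richer in them, and the GC content of a transcript can affect how well it is recovered in a sequencing library. The GC content of the transcript is therefore given with the position of each member called.

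HOXC6 against NEO in each line was compared to find which repair genes differed with HOXC6. A gene was called when edgeR's quasi-likelihood test gave a Benjamini-Hochberg adjusted p under 0.05 and the log2 fold change was above 1 or below -1. In A549, 6 members were called lower with HOXC6 and 0 higher. They were the damage sensors ATM, NBN and RAD50, the end-protection factor RIF1, the excision nuclease ERCC5 and the translesion polymerase POLK. In PC9, 8 members were called lower and 0 higher, namely RAD50, RIF1, the recombination genes BRCA1, RAD51AP1 and WRN, the deubiquitinase USP1, and both translesion polymerases POLK and REV3L. RAD50, RIF1 and POLK were called lower in both lines.

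Of 33 members tested in A549, the 6 called lower stood beside 5.51% of all 8771 genes tested, and the 0 called higher beside 1.7%. Of 31 members tested in PC9, the 8 called lower stood beside 3.56% of 8419 genes and the 0 called higher beside 0.962%. By adjusted p alone, whatever the size of the change, 12 members were lower and 5 higher in A549, where 20.7% of all genes were lower and 18.9% higher. With libraries scaled by their totals only, these became 13 lower and 3 higher. Without A549-HOXC6 replicate 3, 10 were lower and 4 higher by adjusted p, beside 1646 and 1510 of 8908 genes. Called lower were then 4, beside 396 genes. In PC9, 13 members were lower and 0 higher by adjusted p alone, beside 14.2% and 13.3% of all genes. The median log2 fold change of the members tested was -0.37 in A549 and -0.53 in PC9, while that of all genes tested was 0.00 in both. On leaving out each of the 6 libraries of a line in turn, the adjusted p alone was passed in all 6 cases except for FANCI (1 of 6), ERCC1, WRN and REV3L (2 of 6) and RAD54L and MLH3 (3 of 6) in A549, and WRN (2 of 6) and ATM and PALB2 (4 of 6) in PC9. The members not tested for low counts were BRCA2 in A549 and BRCA2, BRIP1 and PMS1 in PC9. In bulk RNA, fewer cells that express a gene and less RNA per cell cannot be told apart.

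**Figure D1:**
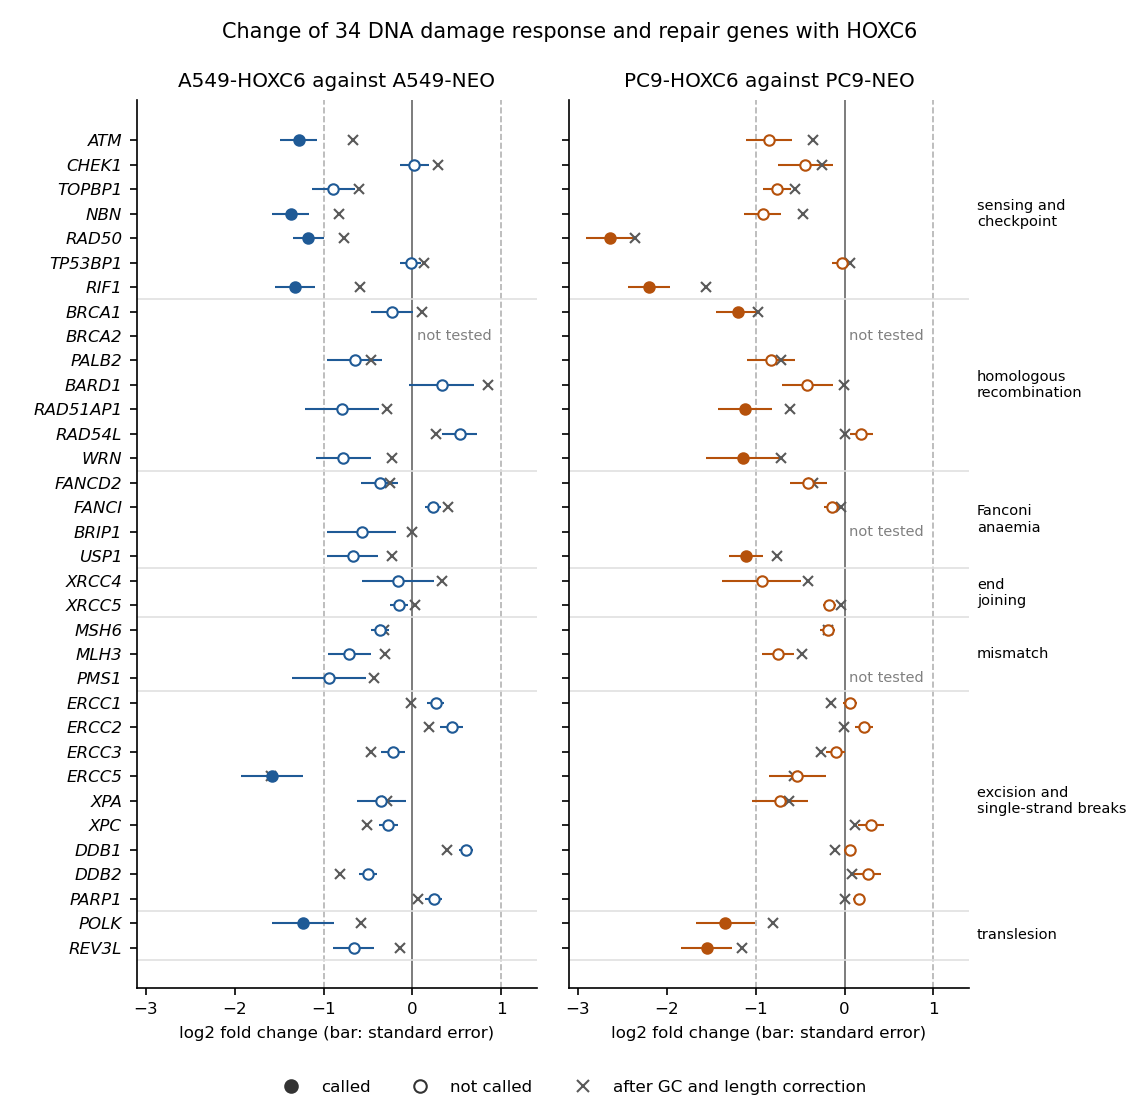
Log2 fold change of each of the 34 members in A549 (left) and PC9 (right), HOXC6 over NEO, ordered by role. Circles are the values as counted with their standard errors, filled where called, crosses are the values after correction for GC content and length, and dashed lines mark log2 changes of -1 and 1. The filled circles all lie to the left of 0, with RAD50 at -2.64 and RIF1 at -2.20 in PC9 farthest out, and most crosses of lowered members lie nearer to 0 than their circles.

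Among the damage sensors, RAD50 (chr5:131891711-131982041, plus strand, GRCh37, 41.2% GC) encodes the ATPase that tethers broken ends. It stood at 65.6, 65.5 and 54.2 CPM in A549-NEO and 31.7, 34.2 and 19.8 CPM in A549-HOXC6. PC9 had 28.6, 39.3 and 32.7 CPM with the empty vector and 5.31, 3.69 and 6.10 CPM with HOXC6. The groups did not overlap in either line, and the PC9-HOXC6 libraries held only 11, 5 and 20 counts. RAD50 was 2.25-fold lower in A549 (log2 fold change -1.17, SE 0.177, adjusted p = 7.8e-06 by edgeR) and 6.24-fold lower in PC9 (-2.64, SE 0.263, adjusted p = 8.02e-09 by edgeR). Without A549-HOXC6 replicate 3, the library with the lowest A549 value, the A549 change was -0.95 and no longer past the size threshold. In the annotation used here, 8124 of the 10565 merged exon bases of RAD50 are shared with another gene on the same strand (ENSG00000283782), so part of its reads may not have been assigned, depending on the annotation used for counting.

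NBN (chr8:90936743-91015456, minus strand, 36.9% GC), which links this complex to ATM, stood at 50.3, 55.4 and 46.8 CPM in A549-NEO and 24.7, 24.0 and 11.8 CPM in A549-HOXC6. Every HOXC6 library lay below every NEO library, with a log2 fold change of -1.37 (SE 0.204, adjusted p = 6.03e-06 by edgeR) and -1.08 without A549-HOXC6 replicate 3. In PC9 it was at 29.7, 32.7 and 28.8 CPM with the empty vector and 15.9, 19.2 and 14.3 CPM with HOXC6. It fell there too by adjusted p (-0.92, SE 0.206, adjusted p = 0.00101 by edgeR) without passing the size threshold. MRE11 (MRE11A in the lists), the nuclease of the same complex and no member, was named after its values were seen: its log2 fold change was -0.64 in A549 (adjusted p = 0.0442 by edgeR) and -1.10 in PC9 (adjusted p = 0.00607 by edgeR), and -0.10 and -0.69 after correction for GC content and length.

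ATM (chr11:108093771-108239829, plus strand, 38.6% GC), the kinase activated by double-strand breaks, stood at 48.2, 46.2 and 37.7 CPM in A549-NEO and 20.4, 25.7 and 11.8 CPM in A549-HOXC6. The groups did not overlap, and the log2 fold change was -1.28 (SE 0.212, adjusted p = 2.63e-05 by edgeR), or -1.02 without A549-HOXC6 replicate 3. In PC9 the NEO libraries held 20, 18.1 and 20.4 CPM and the HOXC6 libraries 13.5, 7.37 and 10.7 CPM. This difference passed by adjusted p and not by size (-0.85, SE 0.259, adjusted p = 0.0141 by edgeR).

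RIF1 (chr2:152266397-152364527, plus strand, 36.6% GC), which acts with TP53BP1 to protect ends from resection and also times replication, stood at 31.2, 29.7 and 38.9 CPM in A549-NEO and 12.4, 19.7 and 11.2 CPM in A549-HOXC6. In PC9 it was at 29.7, 34.2 and 38.6 CPM with the empty vector and 8.20, 6.64 and 7.32 CPM with HOXC6. The HOXC6 libraries lay below all NEO libraries in both lines, 2.50-fold in A549 (log2 fold change -1.32, SE 0.228, adjusted p = 4.09e-05 by edgeR) and 4.58-fold in PC9 (-2.20, SE 0.237, adjusted p = 3.16e-08 by edgeR). TP53BP1 itself, with means of 84.6 and 85.1 CPM in A549 and 100 and 99.3 CPM in PC9, had log2 fold changes of -0.02 and -0.03, and its groups overlapped in both lines.

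TOPBP1, the activator of the checkpoint kinase ATR, was lower in both lines by adjusted p. Its log2 fold change was -0.89 (SE 0.244) in A549 and -0.76 (SE 0.16) in PC9. In A549-HOXC6 it stood at 20.7, 20.5 and 8.56 CPM, and leaving out single A549 libraries gave changes between -1.20 and -0.56. CHEK1, the kinase downstream of ATR, stood at means of 41.0 and 43.7 CPM in A549 (0.02, SE 0.163) and 13.8 and 9.71 CPM in PC9 (-0.44, SE 0.313), and neither difference passed. Of the 7 genes of sensing, checkpoint and pathway choice, 5 were thus lower by adjusted p in each line, and CHEK1 and TP53BP1 did not pass in either. Of all genes tested, 20.7% were lower by adjusted p in A549 and 14.2% in PC9. After correction for GC content and length, 5 of the 7 were lower in A549 and 3 in PC9, beside 19.0% and 12.3% of all genes.

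Among the 7 genes of homologous recombination, BRCA1 (chr17:41196312-41322262, minus strand, 41.8% GC), the ubiquitin ligase that promotes the resection of broken ends, was at 29.7, 23.2 and 28.8 CPM in PC9-NEO and 12.1, 6.64 and 14.3 CPM in PC9-HOXC6. The PC9 groups did not overlap, with a log2 fold change of -1.20 (SE 0.242, adjusted p = 0.000358 by edgeR). In A549 it stood at 23.6, 25.3 and 24.8 CPM with the empty vector and 23.3, 30.0 and 13.4 CPM with HOXC6. The A549-HOXC6 libraries lay on both sides of the NEO libraries (-0.23, SE 0.231, adjusted p = 0.457 by edgeR).

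RAD51AP1 (chr12:4647964-4669213, plus strand, 35.8% GC), an accessory factor of homologous recombination, was at 14.6, 18.6 and 15.3 CPM in PC9-NEO and 5.31, 11.1 and 7.01 CPM in PC9-HOXC6. In A549 its level was 5.55, 6.03 and 8.64 CPM against 4.37, 4.28 and 3.21 CPM. The HOXC6 libraries were the lower in both lines, and the difference passed in PC9 (-1.12, SE 0.302, adjusted p = 0.00555 by edgeR) but not in A549 (-0.79, SE 0.413, adjusted p = 0.128 by edgeR). Without PC9-HOXC6 replicate 1 the PC9 change was -0.93.

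WRN (chr8:30891304-31033654, plus strand, 38.4% GC), the RecQ helicase lost in Werner syndrome, had few reads. It stood at 7.03, 10.1 and 8.06 CPM in PC9-NEO and 1.93, 6.64 and 3.66 CPM in PC9-HOXC6, which is 4, 9 and 12 counts in the HOXC6 libraries. In A549 it was at 10.4, 16.1 and 18.1 CPM against 11.3, 8.56 and 5.89 CPM. The PC9 change of -1.14 (SE 0.414, adjusted p = 0.0387 by edgeR) was lost on leaving out any of 4 of the 6 libraries (NEO replicate 2 or 3, HOXC6 replicate 1 or 3), where the adjusted p reached 0.186, and DESeq2 gave an adjusted p of 0.166. In A549 its change of -0.78 (SE 0.31, adjusted p = 0.0475 by edgeR) was short of the size threshold.

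RAD54L, the motor protein of strand exchange and, at 53.0% GC, the GC-richest gene of this group, was higher in A549 by adjusted p (0.53, SE 0.194, adjusted p = 0.0297 by edgeR) and had a log2 fold change of 0.19 (SE 0.13) in PC9. PALB2, which joins BRCA1 to BRCA2, was lower in PC9 by adjusted p (-0.83, SE 0.269, adjusted p = 0.0202 by edgeR) and at -0.65 (SE 0.309) in A549. BARD1, the partner of BRCA1, was at 0.33 (SE 0.368) in A549 and -0.42 (SE 0.288) in PC9. BRCA2, a central gene of homologous recombination, was too low for the test, with 5, 6 and 7 counts in A549-NEO, 5, 6 and 3 in A549-HOXC6. PC9 had 8, 20 and 13 counts with the empty vector and 5, 0 and 7 with HOXC6. With no filter on low counts its PC9 log2 fold change was -1.87 (adjusted p = 0.00584 by edgeR).

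Of the 4 genes of the Fanconi anaemia pathway, USP1 (chr1:62901968-62917475, plus strand, 38.3% GC), which removes ubiquitin from FANCD2 and FANCI, was called in PC9. It stood at 42.2, 51.3 and 42.0 CPM in PC9-NEO and 27.0, 22.1 and 15.6 CPM in PC9-HOXC6. In A549 it was at 11.8, 17.7 and 16.5 CPM against 11.6, 6.85 and 9.63 CPM. The groups did not overlap in either line, and the difference passed in PC9 (-1.11, SE 0.192, adjusted p = 5.26e-05 by edgeR) but not in A549 (-0.67, SE 0.286, adjusted p = 0.0634 by edgeR). Without PC9-HOXC6 replicate 3 the PC9 change was -0.84. Its substrate FANCD2 had log2 fold changes of -0.37 (SE 0.213) and -0.41 (SE 0.208), neither of which passed. FANCI rose in A549 from a mean of 188 to 229 CPM (0.23, SE 0.0937, adjusted p = 0.0474 by edgeR) and stood at 170 and 156 CPM in PC9 (-0.14, SE 0.0898). The helicase BRIP1 was at 8.86 and 6.19 CPM in A549 and 5.10 and 1.80 CPM in PC9, where it was not tested.

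Neither of the 2 end joining genes passed in either line. XRCC5, the larger subunit of the Ku complex that binds broken ends, was at 247 and 229 CPM in A549 and 321 and 283 CPM in PC9, and XRCC4, the partner of DNA ligase IV, at 5.46 and 5.07 CPM and 5.79 and 3.19 CPM. Of the 3 mismatch repair genes, MLH3 was lower in both lines by adjusted p (-0.71, SE 0.244, and -0.75, SE 0.18) and the mismatch sensor MSH6 in A549 (-0.36, SE 0.101), while PMS1 was at 7.44 and 4.0 CPM in A549 (-0.94, SE 0.413, adjusted p = 0.0701 by edgeR) and at 3.3 and 1.24 CPM in PC9.

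The 9 genes of excision and single-strand break repair were mixed. ERCC5 (chr13:103498181-103528345, plus strand, 45.7% GC), the XPG nuclease that cuts 3′ of a bulky lesion, was at 13.5, 14.1 and 11 CPM in A549-NEO and 5.82, 2.57 and 3.75 CPM in A549-HOXC6, the latter being 16, 3 and 7 counts. In PC9 it was at 8.11, 10.6 and 11.9 CPM against 6.75, 5.90 and 7.93 CPM. The HOXC6 libraries were the lower in both lines, and the A549 difference passed (-1.58, SE 0.353, adjusted p = 0.000821 by edgeR), also without replicate 3 (-1.45), while the PC9 difference did not (-0.53, SE 0.324, adjusted p = 0.233 by edgeR). Its value is uncertain, since 3641 of its 11043 merged exon bases are shared with the readthrough gene BIVM-ERCC5 on the same strand.

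DDB1, the adaptor of the damage-binding ubiquitin ligase, rose in A549. Its A549-NEO libraries stood at 337, 328 and 366 CPM and its A549-HOXC6 libraries at 538, 519 and 553 CPM, without overlap (0.60, SE 0.0809, adjusted p = 1.45e-06 by edgeR). Its partner DDB2, the lesion-binding subunit, went the other way in the same libraries, from 169, 165 and 161 CPM to 116, 109 and 134 CPM (-0.50, SE 0.103, adjusted p = 0.000356 by edgeR). In PC9 neither passed, with DDB1 at means of 444 and 461 CPM and DDB2 at 45.4 and 55.5 CPM. The helicase subunit ERCC2 (0.44, SE 0.126) and the nuclease subunit ERCC1 (0.26, SE 0.0926) were higher in A549 by adjusted p and at 0.22 and 0.06 in PC9. The damage recogniser XPC (-0.27 in A549 and 0.30 in PC9), the helicase ERCC3 (-0.22 and -0.10), the scaffold XPA (-0.35 and -0.73) and the break sensor PARP1 (0.24 and 0.16) did not pass in either line as counted.

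Both translesion polymerases were lower. POLK (chr5:74807670-74905816, plus strand, 38.2% GC), polymerase kappa, stood at 13.2, 15.3 and 11 CPM in A549-NEO and 8.37, 5.14 and 2.68 CPM in A549-HOXC6. PC9 had 12.4, 13.1 and 11.5 CPM with the empty vector and 5.31, 5.16 and 4.27 CPM with HOXC6. The groups did not overlap in either line, with log2 fold changes of -1.23 (SE 0.352, adjusted p = 0.00679 by edgeR) and -1.34 (SE 0.334, adjusted p = 0.00287 by edgeR), and the A549 change was -0.87 without A549-HOXC6 replicate 3. REV3L (chr6:111620231-111804918, minus strand, 39.9% GC), the catalytic subunit of polymerase zeta, was at 20.5, 29.7 and 19.9 CPM in PC9-NEO and 11.6, 4.42 and 7.01 CPM in PC9-HOXC6. The PC9-HOXC6 libraries held 24, 6 and 23 counts of REV3L. In A549 it was at 27.8, 20.1 and 25.1 CPM against 15.3, 21.4 and 12.8 CPM, so that the groups overlapped. The PC9 change was -1.55 (SE 0.289, adjusted p = 0.000135 by edgeR) and the A549 change -0.66 (SE 0.233, adjusted p = 0.0255 by edgeR).

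**Figure D2:**
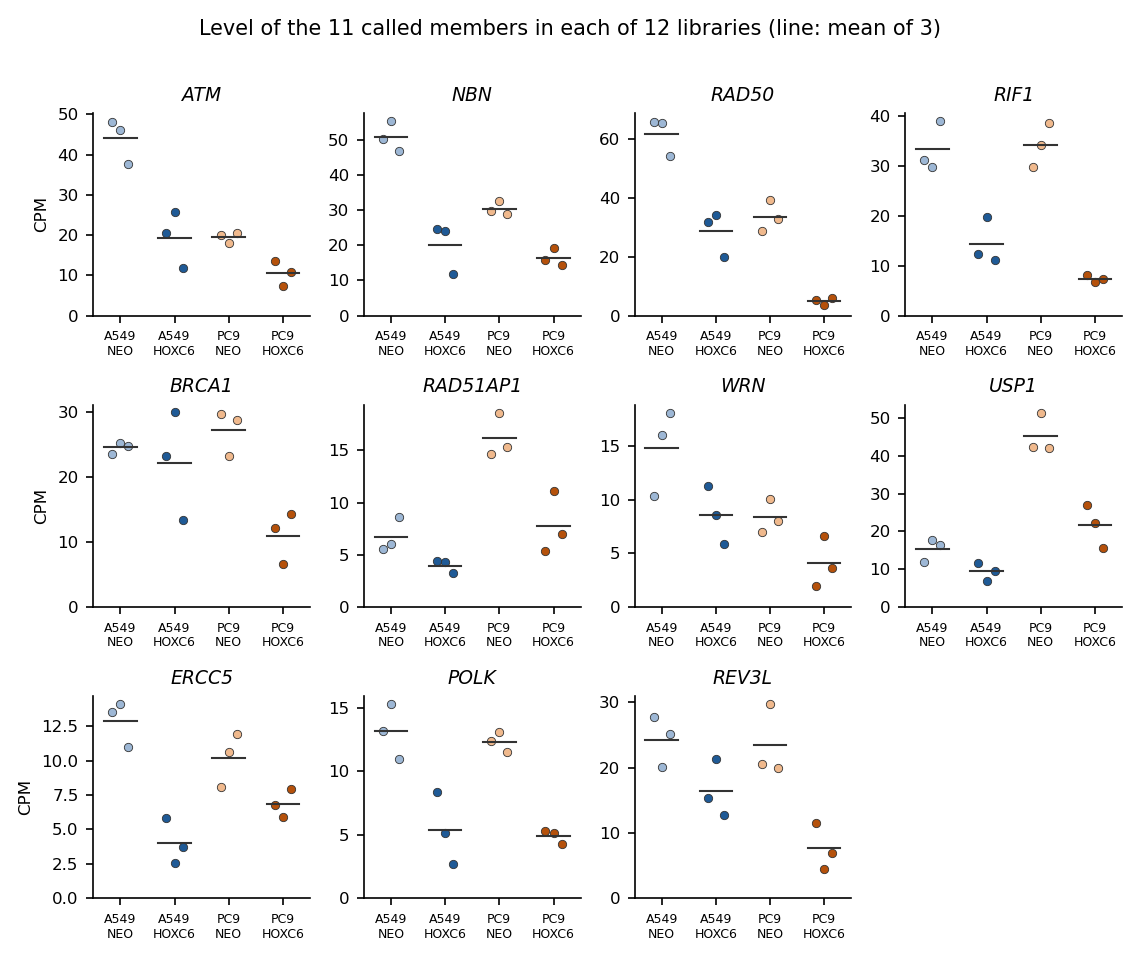
Level in CPM (vertical axis, starting at 0) of the 11 members called in at least 1 line, with a point for each library and a line at the mean of the 3 libraries of a group. RAD50, RIF1 and POLK are separated between NEO and HOXC6 in both lines, RAD50 in PC9-HOXC6 lies at 3.69 to 6.10 CPM, and BRCA1 separates in PC9 but not in A549.

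The members differ widely in base composition, and their changes with HOXC6 varied along with it. The median GC content of the 34 transcripts was 41.9%, with 13 members under 40% and 7 at 50% or more. Coding sequence in GRCh37 illustrates the range of base composition, as an example and not a test, since 3 of the members shown were chosen for their GC content. The following 6 stretches of 90 bases are the middle of the longest coding exon of the 3 members called lower in both lines and of the 3 members with the highest transcript GC content, given on the coding strand with every G and C in capitals.
RAD50: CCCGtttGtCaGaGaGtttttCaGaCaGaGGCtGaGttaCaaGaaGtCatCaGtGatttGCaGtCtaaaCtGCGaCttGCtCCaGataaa
RIF1: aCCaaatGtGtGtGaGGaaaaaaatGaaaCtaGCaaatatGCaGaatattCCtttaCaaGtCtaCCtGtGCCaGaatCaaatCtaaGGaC
POLK: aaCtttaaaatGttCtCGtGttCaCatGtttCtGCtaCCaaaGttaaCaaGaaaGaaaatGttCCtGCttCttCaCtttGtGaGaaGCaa
ERCC2: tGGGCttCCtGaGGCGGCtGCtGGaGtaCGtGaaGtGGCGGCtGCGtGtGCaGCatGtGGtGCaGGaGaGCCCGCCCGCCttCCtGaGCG
ERCC1: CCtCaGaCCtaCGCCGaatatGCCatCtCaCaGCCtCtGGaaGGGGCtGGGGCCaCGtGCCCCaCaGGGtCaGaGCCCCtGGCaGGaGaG
DDB2: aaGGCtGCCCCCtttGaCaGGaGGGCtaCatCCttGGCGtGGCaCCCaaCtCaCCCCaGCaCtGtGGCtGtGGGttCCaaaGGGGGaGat
The stretches of RAD50 (chr5:131931339-131931428), RIF1 (chr2:152320972-152321061) and POLK (chr5:74892481-74892570) hold 39, 32 and 31 G or C bases, and those of ERCC2 (chr19:45867041-45867130), ERCC1 (chr19:45924499-45924588) and DDB2 (chr11:47238460-47238549) hold 61, 59 and 55.

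Across the members tested, the Spearman correlation between GC content and log2 fold change was 0.561 in A549 (n = 33) and 0.849 in PC9 (n = 31). Across all genes with a transcript it was 0.53 (n = 8712) and 0.527 (n = 8360). All of these genes share the same 6 libraries of a line, so the correlations are descriptions. The skew was seen in each HOXC6 library. Relative to the NEO mean of its line, the median of all genes under 40% GC was between -0.67 and -0.38 on the log2(CPM + 1) scale in the 6 HOXC6 libraries, and that of genes at 55% or more between 0.14 and 0.40. The corresponding ranges over the 6 NEO libraries were -0.03 to 0.05 and -0.03 to 0.03. A549-HOXC6 replicate 3 had the widest gap, 1.07, against 0.62 in both other A549-HOXC6 libraries.

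**Figure D3:**
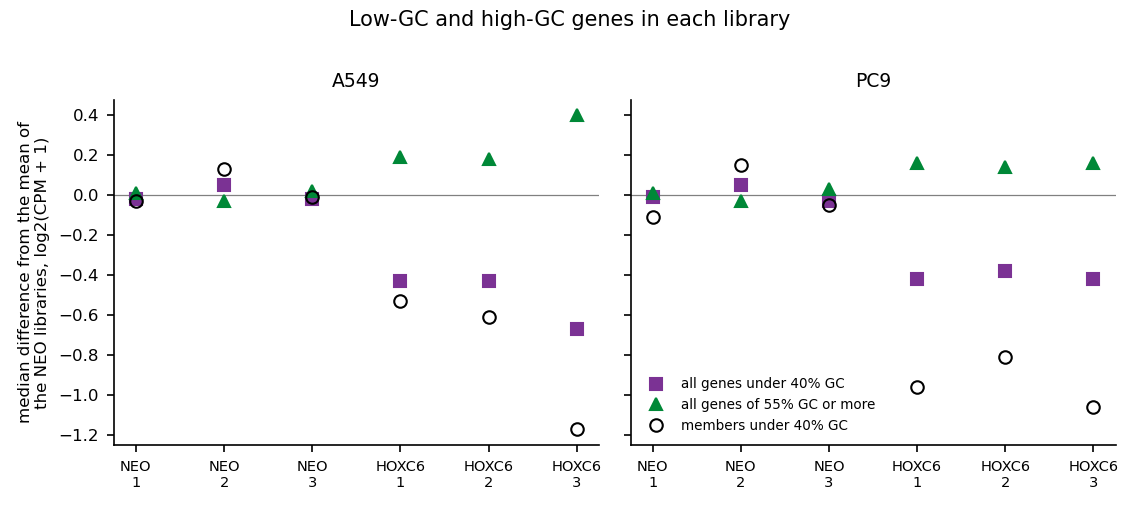
Median difference of each library from the mean of the NEO libraries of its line, on the log2(CPM + 1) scale, for all genes under 40% GC (squares), all genes of 55% GC or more (triangles) and the members under 40% GC (open circles). Squares fall below and triangles rise above 0 in all 6 HOXC6 libraries, and the circles of members fall to between -1.17 and -0.53.

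The members were set beside genes of like GC content, as a description. In A549, 6 of 12 members under 40% GC were lower by adjusted p, where 51.4% of all 1435 genes in that band were, and 4 of 12 were called, where 19.6% were. In PC9, 8 of 10 members under 40% GC were lower by adjusted p, where 39.7% of 1370 genes were, and 6 of 10 were called, where 14.9% were. Between 40 and 45% GC, 1 of 11 members was called in A549 beside 7.7% of 1831 genes, and 2 of 11 in PC9 beside 4.45% of 1751 genes. Between 45 and 50% GC, 1 of 3 members was called in A549 beside 1.16% of 1383 genes, and 0 of 3 in PC9 beside 0.743% of 1345 genes. None of the 7 members at 50% GC or more was called in either line. Few of all genes there were called lower: 0.698% at 50 to 55% GC and 1.23% at 55% or more in A549, and 0.321% and 0.151% in PC9.

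After each library was corrected for smooth trends in GC content and length, the call in A549 was kept by ERCC5 (-1.59), whose transcript has 45.7% GC, and by none of the other 5 called members. The 1 call stood beside 2.55% of all genes. ATM (-0.67), NBN (-0.83), RAD50 (-0.77) and RIF1 (-0.59) stayed lower by adjusted p, whereas POLK (-0.58) did not. By adjusted p alone 10 members were then lower and 2 higher in A549, beside 19.0% and 12.8% of all genes. XPC (-0.51) and ERCC3 (-0.47), which had not passed as counted, were among those lower, and WRN, MLH3 and REV3L no longer were. FANCI (0.40) and DDB1 (0.39) stayed higher, and RAD54L (0.26) and ERCC2 (0.19) no longer passed. In PC9 the calls of RAD50 (-2.36), RIF1 (-1.56) and REV3L (-1.15) were kept, 3 members beside 1.62% of all genes. BRCA1 (-0.97) and USP1 (-0.76) stayed lower by adjusted p, and RAD51AP1 (-0.61), WRN (-0.72) and POLK (-0.80) did not. By adjusted p alone 6 members were lower and 0 higher in PC9, beside 12.3% and 8.3% of all genes. The Spearman correlation with GC content was then 0.111 over the members in A549 and 0.631 in PC9, and 0.023 and -0.0296 over all genes. ERCC1 in A549 turned from 0.26 to -0.02. Whether the skew arose in the cells or in the libraries cannot be told apart, since HOXC6 and NEO libraries differ by it in both lines.

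**Figure D4:**
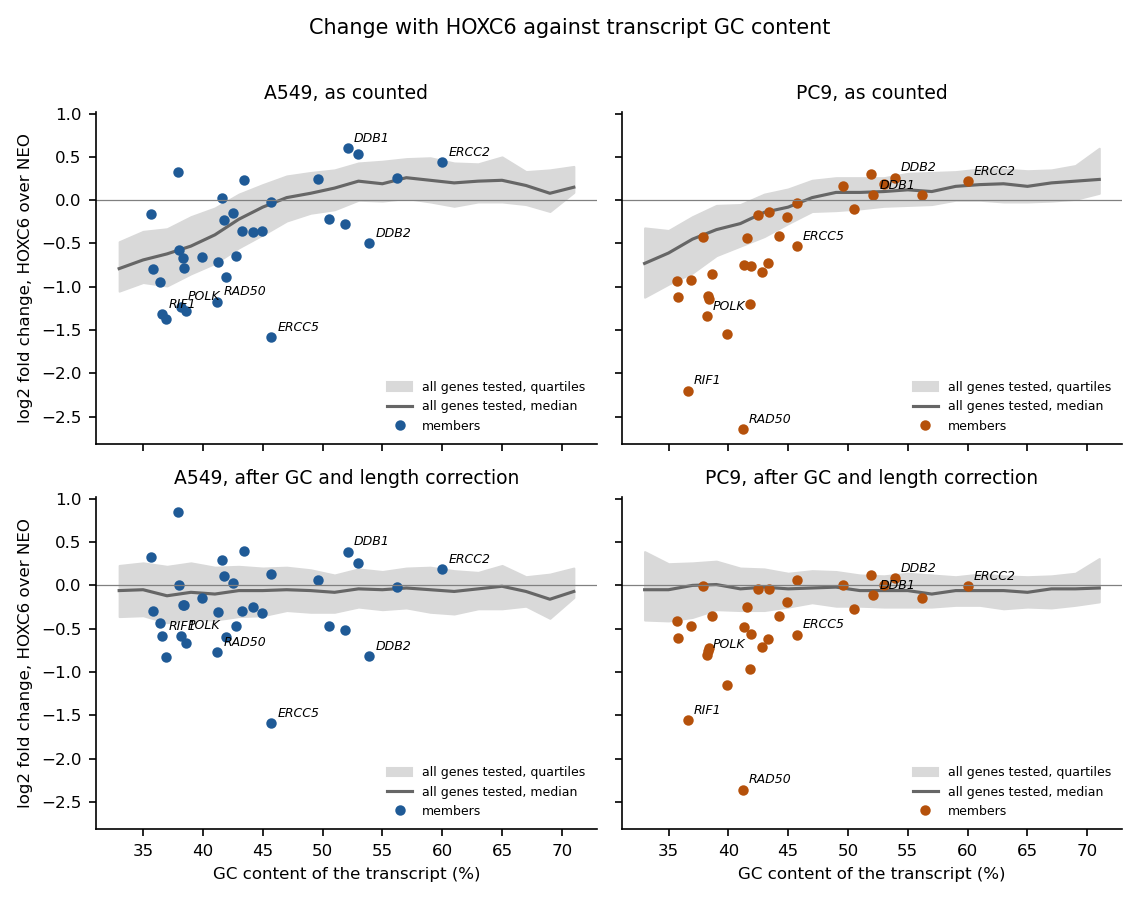
Log2 fold change of HOXC6 over NEO against transcript GC content in percent, as counted (top) and after correction for GC content and length (bottom), in A549 (left) and PC9 (right). Points are members, the line is the median and the band the quartiles of all genes tested in steps of 2% GC. As counted, members and all genes rise together with GC content. After correction the median of all genes is near 0 throughout, while RAD50 in PC9 stays at -2.36, RIF1 in PC9 at -1.56 and ERCC5 in A549 at -1.59.

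RAD50, RIF1 and POLK were called lower in both lines, 3 of the 31 members tested in both, where 1.45% of 7954 genes were. Without A549-HOXC6 replicate 3, only RIF1 of these 3 was called in both. By adjusted p alone 9 members were lower in both lines, beside 8.32% of genes, namely ATM, TOPBP1, NBN, RAD50, RIF1, WRN, MLH3, POLK and REV3L. After the correction, 0 members were called lower in both lines and 3 were lower in both by adjusted p, beside 19 and 288 of all 7954 genes. As counted, these numbers over all genes were 115 and 662.

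The difference between the lines was tested as an interaction over all 12 libraries. It passed the thresholds for 2 of 34 members, beside 5.15% of 9229 genes, and the adjusted p alone for 6, beside 19.4%. RAD50 fell further in PC9 than in A549, by 1.51 on the log2 scale (SE 0.329, adjusted p = 0.000752 by edgeR), and the value was -1.62 after the GC correction. BRCA1 was also more strongly lowered in PC9 (-1.01, SE 0.341, adjusted p = 0.0303 by edgeR), with -1.11 after the correction. The BRCA1 difference was lost in 9 of 22 alternatives, with DESeq2, after thinning and on leaving out any of 7 libraries. The 22 do not include the stricter thresholds. DDB1 (-0.58, SE 0.107) and FANCI (-0.42, SE 0.131) passed as higher with HOXC6 in A549 and did not pass in PC9, and DDB2 (0.71, SE 0.18) passed as lower in A549 and did not pass in PC9, while XPC (0.52, SE 0.184) passed in the difference though in neither line alone. ERCC5, called in A549 only, did not pass in the difference (0.99, SE 0.491, adjusted p = 0.158 by edgeR), nor did REV3L (-0.94, SE 0.38, adjusted p = 0.0772 by edgeR) or RIF1 (-0.92, SE 0.343, adjusted p = 0.0531 by edgeR). After the GC correction, RIF1 (-1.02, adjusted p = 0.0239 by edgeR) and REV3L (-1.06, adjusted p = 0.0333 by edgeR) were called in the difference, and ERCC5 (0.98) was not.

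The lines were also compared without HOXC6, where the shares of members that differed were near those of all genes. Between PC9-NEO and A549-NEO, 5 members were called lower in PC9, beside 19.6% of 9076 genes, and 6 higher, beside 16.4%. By adjusted p alone 24 of 34 members differed, beside 72.7% of all genes. This comparison uses the NEO libraries of both lines, as the comparisons with HOXC6 do. DDB2 (log2 difference -1.91, SE 0.109) and XPC (-1.66, SE 0.113), which both recognise ultraviolet lesions and are known targets of p53, were lower in PC9-NEO, with means of 45.4 against 165 CPM and 51.5 against 159 CPM. CHEK1 (-1.61, SE 0.207), PMS1 (-1.23, SE 0.4) and ATM (-1.21, SE 0.176) were also lower. USP1 (1.53, SE 0.19), BRCA2 (1.48, SE 0.452), RAD51AP1 (1.22, SE 0.286), RAD54L (1.21, SE 0.163), BARD1 (1.17, SE 0.312) and PARP1 (1.04, SE 0.0739) were higher in PC9-NEO. Of the homologous recombination genes, 4 of 7 were thus called higher in PC9-NEO, beside 16.4% of all genes, with BRCA2 on few counts. The call of BRCA2 was lost without PC9-NEO replicate 2 and that of PARP1 without A549-NEO replicate 2. That of ATM was lost with the GC correction on merged exons.

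Levels of different members were compared per kb of merged exons. XRCC5 was the highest in A549-NEO (45.2 CPM per kb) and in PC9-NEO (58.7), followed by ERCC1 (42.1 and 33.8). BRCA2 was the lowest in A549-NEO (0.159 CPM per kb) and BRIP1 in PC9-NEO (0.260). Among the members called with HOXC6, RAD50 held 5.85 CPM per kb in A549-NEO and 3.17 in PC9-NEO, and 2.70 and 0.476 with HOXC6. Per kb of the representative transcript, MSH6 led in A549-NEO (93.6) and DDB1 in PC9-NEO (105), so the top of the order depends on the length used.

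**Figure D5:**
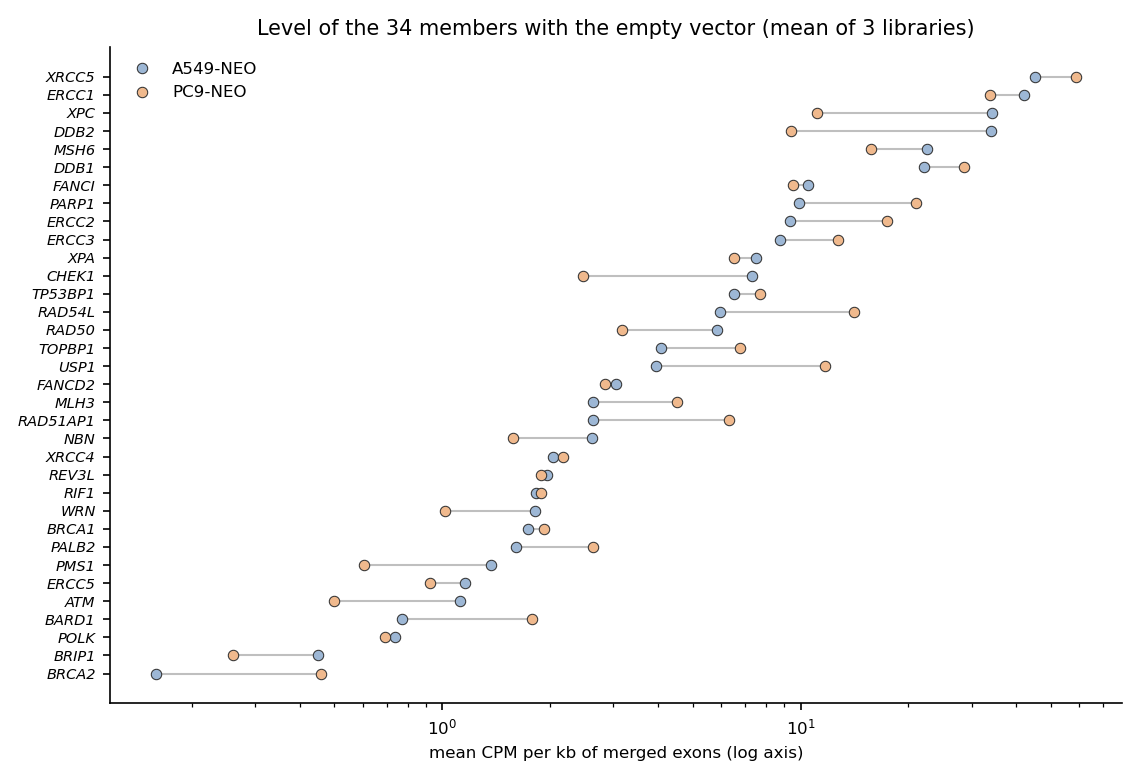
Mean level of the 34 members in A549-NEO (blue) and PC9-NEO (orange), in CPM per kb of merged exons on a log axis, ordered by A549-NEO. DDB2, XPC and CHEK1 lie well to the left in PC9-NEO, and USP1, RAD54L, RAD51AP1 and BRCA2 to the right.

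From a list of 111 other repair genes, 74 were in the table. The others all have higher Ensembl identifiers than these 74, so their absence says nothing about their level. In A549, 3 of 74 tested were called lower and 2 higher, and in PC9 7 of 73 were called lower and 0 higher, beside the 5.51% and 3.56% of all genes called lower and the 1.7% and 0.962% called higher. After the GC correction 1 was called lower and 0 higher in A549, and 2 lower and 0 higher in PC9. Their median log2 fold change was -0.07 in A549 and -0.15 in PC9. The helicase RECQL was called lower in both lines (-1.05, SE 0.195, and -1.54, SE 0.161), and after the GC correction kept the call in PC9 (-1.13) and lost it in A549 (-0.56). The Fanconi ubiquitin ligase FANCL (-0.71, SE 0.115, and -1.10, SE 0.138), the translesion polymerase scaffold REV1 (-1.13, SE 0.176, and -0.95, SE 0.153) and the fork-remodelling HLTF (-0.72, SE 0.181, and -0.89, SE 0.174) were lower in both lines by adjusted p. After the correction FANCL (-0.39 and -0.78) and REV1 (-0.94 and -0.82) still passed by adjusted p in both lines, and HLTF (-0.13 and -0.41) in neither. Many repair genes are expressed most in dividing cells, and of 20 proliferation markers 15 were in the table. By adjusted p, 10 of these were higher and 2 lower in A549 (median log2 fold change 0.70), beside 18.9% and 20.7% of all genes. In PC9, 8 were lower and 0 higher (median -0.30), beside 14.2% and 13.3%. After the GC correction 9 were higher and 2 lower in A549 (median 0.52), beside 12.8% and 19.0% of all genes. In PC9, 11 were then lower and 0 higher (median -0.43), beside 12.3% and 8.3%. The part of these markers in the changes of the members was not tested.

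Of the 34 members, 18 have an annotated gene that starts within 1000 bases on the opposite strand. NPAT, the histone gene coactivator that starts 406 bases from ATM, was lower in both lines (-1.15, SE 0.412, adjusted p = 0.0282, and -2.86, SE 0.491, adjusted p = 5.13e-05, by edgeR), on 1 to 9 counts in each HOXC6 library. After the GC correction it passed in PC9 (-2.42, adjusted p = 0.000808 by edgeR) and not in A549 (-0.58, adjusted p = 0.328 by edgeR). CERT1, the ceramide transporter that starts 293 bases from POLK, was lower in A549 (-1.06, SE 0.181, adjusted p = 3.95e-05 by edgeR) and at -0.15 (SE 0.176) in PC9. C12orf4 beside RAD51AP1 was at -0.74 (SE 0.322) in PC9 and not tested in A549, and the cytokine gene IL5 beside RAD50 had at most 2 counts in any library. Exons of 21 members overlap an exon on the opposite strand, among them 827 bases of NBN, 898 of POLK and 693 of REV3L, and the strand setting of the counting is not given in the sources used here.

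Promoter windows of 300 bases from RefSeq were matched for 30 members, 43 windows in all. Neither homeodomain motif, TAATTA or TGATTNAT, occurred in them on either strand, where 4.84% and 2.82% of all 35116 windows held it. An E2F motif (TTTGGCGC, TTTCCCGC, TTTCGCGC or TTTGCCGC) occurred on either strand in 11.6% of the member windows and 3.31% of all windows, a window with several counting once, in FANCD2, MSH6, REV3L, TOPBP1 and XPC. The cell cycle motif TTTGAA occurred on either strand in 14.0% and 15.2%. These are matches of letters in these windows and not binding sites.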

How the data were processed

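Polyadenylated RNA of stably infected A549 and PC9 cells was sequenced as directional libraries. Per the submitters' processing notes, bcl2fastq 2.19, HISAT2 2.1.0, HTSeq 0.9.1, DESeq2 and the build GRCh37.p13 were used. The deposited values are the authors' raw read counts per gene, without normalization or pooling. The annotation release and the strand setting of the counting are not given in the sources used here. Of the count table, 12584 complete genes were used and 1 incomplete entry was left out, so totals, scaling and adjustment cover these genes. They include 12249 of 20175 annotated protein-coding genes. Listed genes and markers absent from the table have higher Ensembl identifiers than those present, apart from PECAM1, which was not matched.

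Groups and replicate numbers came from the sample labels. For each comparison, genes were filtered with filterByExpr, scaled by TMM and tested with edgeR 4.0.16 (R 4.3.3) by the quasi-likelihood F test, two-sided, with Benjamini-Hochberg adjustment over all genes tested. HOXC6 was compared with NEO within each line (3 against 3), the lines by interaction over 12 libraries, and PC9-NEO with A549-NEO. Levels are TMM-scaled CPM with 1 scaling over 12 libraries. Floors of 3 counts cover counting error only. Replicates were separate libraries, and p-values measure the spread between them, which may be technical. GC content and length are those of the Ensembl canonical transcript in GENCODE for GRCh37, and their correction used smooth terms per library (mgcv 1.9.3) as offsets. On simulated data with 200 changed genes, the test recovered 99% in A549 (8771 genes), 100% in PC9 (8419), 95.5% in the interaction (9229) and 100% between the NEO lines (9076). With a GC trend added to the simulation, the uncorrected test recovered 73%, 80%, 77.5% and 71% and called 843, 711, 986 and 789 unchanged genes, and the corrected test recovered 98.5%, 99%, 96.5% and 99.5% and called 1 unchanged gene in each. The simulated trend was linear in GC content and equal in all 3 libraries of 1 group. Changed genes were drawn without regard to GC content and not from those lowest in level. These shares therefore do not carry over to GC-poor members with few counts, nor to changes nearer the threshold. Promoter windows came from RefSeq, as given for the members matched by symbol.

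The members and all gene lists were chosen with earlier results of these data known. Every member is named, and full values are given for those called in a line or in the difference between lines. Other repair genes are named when called in both lines or, where fewer than 4 were, as the 4 with the smallest adjusted p summed over the lines. Neighbours are named where the member was called and proliferation markers are summarised. The alternatives were DESeq2 1.42.0, 12 libraries in 1 model, other scalings and filters, other thresholds, a replicate block, GC corrections, thinning to equal depth and leaving out each library.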

Additional observations from a re-analysis of the deposited data

Results flagged for a closer look

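For 6 of 34 members the change with HOXC6 differed between the lines by edgeR's interaction test, PC9 minus A549 on the log2 scale. By the same adjusted p 19.4% of all 9229 genes differed. At the thresholds 2 members did, beside 5.15% of all genes. RAD50 differed by -1.51 and kept its adjusted p under 0.05 in all 22 alternatives counted, with values between -1.71 and -1.26. The counts of alternatives given here leave out the adjusted p under 0.01 and the test against a log2 change of 1, which 0 members passed. BRCA1 differed by -1.01 and passed in 13 of 22, being lost with DESeq2, after thinning to equal depth and on leaving out any of 7 libraries, with values between -1.28 and -0.84. DDB1 differed by -0.58 and DDB2 by 0.71, and both passed in all 23 alternatives. FANCI differed by -0.42 and passed in 20 of 23. XPC differed by 0.52 and passed in 13 of 23. These tests share the NEO libraries with the comparison of the lines without HOXC6, and no cause was tested.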

How the results depend on the processing

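The numbers of members called kept to within 1.5 times with DESeq2, 12 libraries in 1 model, RLE factors, library totals only, no filter, thinning and the replicate block, except in the difference between lines, where 2 became 1 with DESeq2 and 1 with RLE factors. Over these settings, 397 to 550 of all genes were called lower in A549 and 258 to 365 in PC9. The main test had 483 and 300. In the difference, 475 of all genes became 359 with DESeq2 and 453 with RLE factors. The replicate block left 6 lower in A549, 8 lower in PC9 and 2 in the difference, beside 493, 293 and 488 of all genes. Same-numbered samples did not deviate together (correlations between -0.0263 and 0.0423), so the block was not taken as a pairing, and for the NEO lines it was not run. Without the fold criterion, 12 members were lower and 5 higher in A549, beside 20.7% and 18.9% of all genes. In PC9 13 were lower, beside 14.2%. Between lines 6 differed, beside 19.4%, and between the NEO lines 24, beside 72.7%. Tested against a change of 1 on the log2 scale, 0 were lower in A549 and 2 in PC9, beside 37 and 37 of all genes. In the difference 0 then passed, beside 13, and between the NEO lines 4, beside 2421. At least 10 counts in every library left 2 lower in PC9, where 21 members could then be tested, beside 181 of 7651 genes. It left 0 in the difference, beside 307 of 6904 genes. An adjusted p under 0.01 left 1 in the difference, beside 320 of 9229 genes. Corrected for GC content and length, 1 was lower in A549, 3 in PC9 and 4 in the difference, beside 224, 136 and 485 of all genes. With the block added, or on merged exons, these were 1, 4 and 4. Of all genes, 217, 135 and 489 were called with the block and 213, 136 and 487 on merged exons. The correction with no fold criterion was added after seeing the data. It gave 10 lower and 2 higher in A549, beside 1664 and 1120 of all genes. In the difference it gave 8, beside 1987, and between the NEO lines 24, beside 6611.

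Leaving out each library in turn gave 4 to 8 members lower and 0 higher in A549, beside 396 to 634 and 129 to 183 genes. In PC9 it gave 7 to 10 lower and 0 higher, beside 267 to 315 and 78 to 109 genes. It gave 1 to 4 in the difference, beside 438 to 551 genes, and 11 to 12 between the NEO lines, beside 3340 to 3409. The members called in the difference fell to 1 without A549-NEO replicate 1, A549-HOXC6 replicate 1 or 2, PC9-NEO replicate 3 or PC9-HOXC6 replicate 2. They rose to 4 without A549-HOXC6 replicate 3. ERCC1 in A549 turned to -0.02 under the GC correction, to -0.02 with the block added and to -0.0 on merged exons. Of 1586 values of single members under the alternatives, 1475 kept their side of the threshold, 42 of these with a changed sign, 85 fell short of it, 23 newly passed it and 3 reversed. The causes were not tested. Members with few counts, such as BRCA2, BRIP1, PMS1 and WRN, are limited by depth.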
